A study of Mus musculus with 12 samples.

Results

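Levels of 40 endothelial and early vascular genes were compared in single mouse embryos: the VEGF and Tie receptors and their ligands, the junction and surface proteins of endothelial cells, the ETS and SOX factors that specify them, and the apelin, adrenomedullin and ALK1 receptor genes. The 40 symbols were chosen by name, and all 40 were found among the 23284 genes of the count table. All 40 also passed the filter on low counts, which 14412 genes passed in total. RNA came from whole embryos aged 9.0 days post coitum (9 to 10 somites), on a mixed C57BL/6 x 129Sv background. The wild-type group holds 4 embryos, and the other group holds 8 embryos whose genotype label reads Tgif1;Tgif2 null and which the series text calls conditional double mutants without either allele of both genes. The sources used here do not give the Cre driver, the tissues in which it acted, litters or library batches.

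Endothelial cells of the early embryo arise from mesoderm that carries the VEGF receptor Kdr. ETS factors, first Etv2 and then Erg and Fli1, switch on the endothelial programme together with the SoxF factors Sox7, Sox17 and Sox18. The first plexus of vessels is then remodelled into arteries and veins, a step that needs the receptors Tek and Tie1 with the angiopoietins, ALK1 with endoglin, and the Notch ligand Dll4. Tgif1 and Tgif2 encode homeodomain repressors that restrain TGF-beta and Nodal signalling.

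The total count per library was 17296017 to 20080786 for wild-type embryos and 16802367 to 21346245 for the others. Levels are given as CPM, the count of a gene scaled to a common library size by TMM, differences as log2 fold changes with their standard error (SE), and adjusted p comes from edgeR's quasi-likelihood test with Benjamini-Hochberg adjustment over all 14412 genes, with a threshold of 0.05. Tgif1 stood at 60.9 ± 2.52 CPM (SD, n = 4) in wild type and 6.2 ± 0.528 CPM (SD, n = 8) in the other group. Tgif2 was not lower there, at 97.9 ± 11.8 CPM (SD, n = 8) against 87.3 ± 1.17 CPM (SD, n = 4) (adjusted p = 0.0958). A count over the whole gene does not check a deletion of part of it, and Tgif2 has 1 near-identical copy (Tgif2-ps2). A gene on the opposite strand overlaps 31.2% of the exon length of Tgif2, and whether the counting used strand is not stated. The embryos are therefore called mutant-labelled. Mutant-labelled embryo 2 stood apart in red cell genes, whose 14 levels summed to 39.7 CPM there. They summed to between 249.6 and 1738 CPM in the 7 remaining embryos of its group and to 821 to 1376 CPM in wild type. Wild-type embryo 1 had the lowest level of 21 of the 40 endothelial genes among wild-type embryos. Results are given below also without these embryos.

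Most of the 40 endothelial genes were higher in the mutant-labelled embryos, and the changes were moderate. The test called 24 genes higher and 1 lower (Ets1), and 15 did not pass. Over all genes tested 51.5% were called, 26.6% higher and 24.9% lower, and among the 40 endothelial genes 62.5%, nearly all of them higher. The median log2 fold change over the 40 genes was 0.44, against 0.01 over all genes, and 38 of the 40 values were above 0. In 19 genes every mutant-labelled embryo lay above every wild-type embryo, and in 1 gene every one lay below; over all genes the groups did not overlap in 34.7%, in 17.5% with the mutant-labelled embryos above. Without wild-type embryo 1 and mutant-labelled embryo 2 the counts were 21 higher and 1 lower, and without mutant-labelled embryo 6, the embryo with the highest endothelial level, 23 and 1. In whole embryos, more endothelial cells and more RNA per endothelial cell cannot be told apart.

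**Figure D1:**
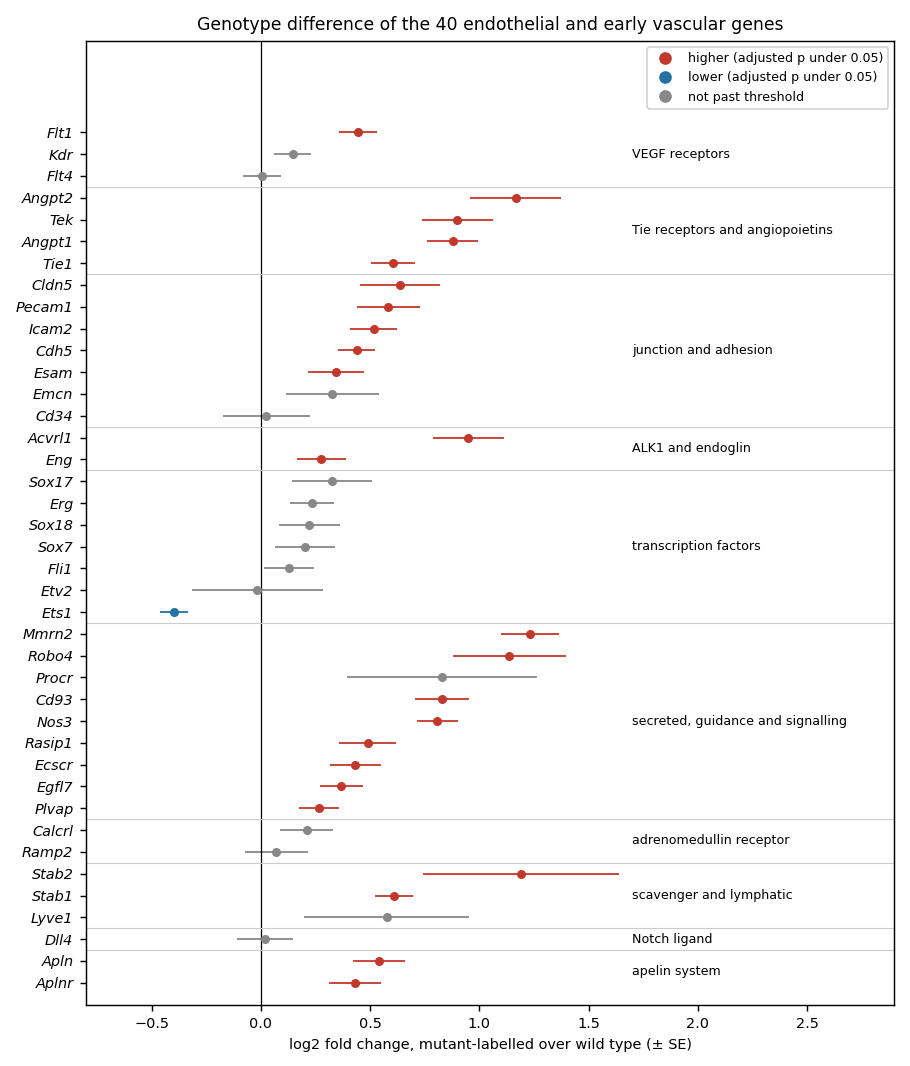
Log2 fold change (x axis, mutant-labelled over wild type) with its SE for each of the 40 genes, grouped by role. Points in red passed the test as higher (24 genes), the blue point as lower (Ets1), and grey points did not pass (15 genes); all 4 genes of the Tie group are red and 6 of the 7 transcription factors are grey.

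The expression of genes that define endothelium was clear in every embryo. Corrected for the length of the exons, the most abundant of the 40 genes in wild type were Plvap, which encodes a protein of endothelial diaphragms, at 33.4 CPM per kb, Egfl7 at 28.6, Ramp2 at 23.7, Kdr at 23.3, Ets1 at 22.1 and Cdh5 at 20.6 CPM per kb. The least abundant were Robo4 at 0.341 and Stab2 at 0.355 CPM per kb. Within the wild-type group the median coefficient of variation of the 40 genes was 10.6%, and within the mutant-labelled group 17.1%, against 7.08% and 10.9% over all genes tested.

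Promoter windows were in the RefSeq table (GRCm38.p6) for 20 of the 40 genes, in 24 windows. They are shown because ETS factors are the shared regulators of endothelial genes and because Tgif1 and Tgif2 bind a short motif, which is not particular to them. The 250 bases before each start were searched on both strands for 8 motifs. An ETS motif, CAGGAAG, was found in 10 of 24 windows (41.7%), against 10.8% of all 32851 windows of the same length. The core GGAA, which CAGGAAG contains, was found in 91.7% of these windows and 93.4% of all. Another ETS motif, CCGGAAGT, was found in 0% against 2.88%. The motif TGACAG, a core that TGIF proteins bind, was found in 29.2% against 15.9%, and CTGTCAA, whose reverse complement contains TGACAG, in 4.17% against 2.95%. The forkhead motif TGTTTAC stood at 0% against 3.17%, the SOX motif ACAAAG at 16.7% against 16.5% and the GATA motif GATAAG at 4.17% against 6.55%. Of the 9 genes with CAGGAAG 5 were called higher, and of the 11 without it 6 were. Of the 7 genes with TGACAG 5 were called higher, and of the 13 without it 6 were. In the windows below, read 5′ to 3′ on the strand of the gene and ending at the base before the start, capitals mark CAGGAAG and TGACAG or their reverse complements.
Tek, chr4:94739039-94739288, plus strand: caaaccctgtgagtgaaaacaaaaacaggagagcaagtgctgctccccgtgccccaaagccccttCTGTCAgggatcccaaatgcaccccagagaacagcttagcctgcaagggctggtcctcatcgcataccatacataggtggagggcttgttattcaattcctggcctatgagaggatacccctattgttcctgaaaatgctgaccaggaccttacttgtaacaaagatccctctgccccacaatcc
Apln, chrX:48034854-48035103, minus strand: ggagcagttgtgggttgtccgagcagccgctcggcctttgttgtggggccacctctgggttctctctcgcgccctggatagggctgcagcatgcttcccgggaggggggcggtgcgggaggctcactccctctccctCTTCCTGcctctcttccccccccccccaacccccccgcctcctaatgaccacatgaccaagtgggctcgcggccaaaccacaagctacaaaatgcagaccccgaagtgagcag
Stab1, chr14:31168642-31168891, minus strand: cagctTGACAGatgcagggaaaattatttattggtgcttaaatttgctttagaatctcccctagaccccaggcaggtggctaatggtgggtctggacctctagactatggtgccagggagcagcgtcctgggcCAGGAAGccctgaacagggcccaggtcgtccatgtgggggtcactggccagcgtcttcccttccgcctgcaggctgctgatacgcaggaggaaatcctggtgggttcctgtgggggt
Cd34, chr1:194938571-194938820, plus strand: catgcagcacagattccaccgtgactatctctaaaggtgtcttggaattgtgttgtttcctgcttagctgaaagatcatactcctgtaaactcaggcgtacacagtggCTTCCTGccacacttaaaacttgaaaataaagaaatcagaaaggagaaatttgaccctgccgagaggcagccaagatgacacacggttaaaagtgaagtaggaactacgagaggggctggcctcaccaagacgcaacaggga
Erg, chr16:95459349-95459598, minus strand, 1 of 3 windows of this gene: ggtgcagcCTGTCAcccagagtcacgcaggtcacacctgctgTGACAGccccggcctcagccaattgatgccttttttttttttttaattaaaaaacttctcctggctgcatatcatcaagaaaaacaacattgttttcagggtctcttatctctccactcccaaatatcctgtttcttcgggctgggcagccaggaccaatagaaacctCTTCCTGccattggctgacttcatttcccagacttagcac
The window of Tek holds TGACAG in reverse at 185 bases before the start, and that of Apln the ETS motif in reverse at 113 bases. Stab1 has both, TGACAG at 245 and CAGGAAG at 117 bases. Cd34 has CAGGAAG in reverse at 142 bases. This window of Erg, which encodes an ETS factor itself, has CAGGAAG in reverse at 40 bases and TGACAG at 208 and, in reverse, at 242 bases. Such a match is a description of the letters, and binding was not measured.

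Of the 40 genes 4 belong to the angiopoietin and Tie system, and each of these rose, beside 26.6% of all genes called higher. Tek encodes the angiopoietin receptor that steadies and remodels vessels, and it stood at 39.6, 51, 66.6 and 59.7 CPM in wild-type embryos 1 to 4. In the mutant-labelled embryos it ranged from 79.1 CPM through a median of 101 CPM to 140.4 CPM. The groups did not overlap, with the lowest value in mutant-labelled embryo 4 and the highest in embryo 1, and Tek rose by 0.90 on the log2 scale (SE 0.16, adjusted p = 0.000505). Tie1, the partner receptor of Tek, stood at 36.5, 46.3, 43.8 and 41.5 CPM in wild type and at 55.8 to 84.1 CPM, with a median of 63.1 CPM, in the mutant-labelled embryos. All 8 lay above wild type, embryo 6 highest, and Tie1 rose by 0.60 (SE 0.10, adjusted p = 0.000169).

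The ligand genes Angpt1 and Angpt2 rose as well. Angpt1, the activating ligand of Tek, was at 14.9, 19.8, 21.5 and 20.3 CPM in wild type and at 28.8 to 44.1 CPM (median 34.3) in the mutant-labelled embryos. Every mutant-labelled embryo lay above wild type, and the rise was 0.88 (SE 0.12, adjusted p = 2.12e-05). An antisense gene overlaps 17.3% of its exon length. Angpt2, a context-dependent antagonist of Angpt1 made by remodelling endothelium, was at 2.55, 4.71, 4.49 and 3.69 CPM in wild type and at 5.94 to 12.2 CPM (median 7.85) in the mutant-labelled embryos. The groups again did not overlap, and Angpt2 rose by 1.17 (SE 0.21, adjusted p = 0.000309). The log2 ratio of Angpt2 to Angpt1 within an embryo was -2.19 ± 0.18 (SD, n = 4) in wild type and -1.98 ± 0.42 (SD, n = 8) in the mutant-labelled group. This ratio and the 4 others given below were chosen after the values were seen and are described without a test.

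Other genes that are linked to the Tie system or only angiopoietin-like did not all share that direction. Of 6 such genes 3 rose and 1 fell, beside 26.6% and 24.9% over all genes. The gene that fell and 2 of those that rose were angiopoietin-like. Angpt4, another angiopoietin, at 0.253 to 1.04 CPM in wild type, did not pass (0.14, SE 0.42, adjusted p = 0.804), nor did Ptprb, a phosphatase that acts on Tek (0.13, SE 0.15, adjusted p = 0.494); both were added to the text after their values were seen. Svep1, a matrix protein gene, rose from 43 ± 7.96 CPM (SD, n = 4) to 71 ± 13 CPM (SD, n = 8), by 0.72 on the log2 scale (SE 0.14). The angiopoietin-like genes Angptl2 and Angptl1 rose by 0.47 (SE 0.08) and 1.19 (SE 0.36), the last from only 0.423 CPM. Angptl4, an inhibitor of lipoprotein lipase, fell by 0.71 (SE 0.15). The edgeR adjusted p of these 4 genes lay between 0.000127 and 0.0125.

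Of the 3 VEGF receptor genes 1 was called higher, beside 26.6% over all genes. Flt1, which binds VEGF-A tightly and can act as a decoy, was at 26, 30, 29.5 and 26.8 CPM in wild type and at 31.5 to 42.9 CPM (median 39) in the mutant-labelled embryos. All 8 were above wild type, and Flt1 rose by 0.45 (SE 0.09, adjusted p = 0.000558). Kdr, the main signalling receptor, was at 139, 128, 152 and 135 CPM in wild type and at 135 to 189 CPM (median 147) in the mutant-labelled embryos. Its groups overlapped, 4 mutant-labelled embryos lay above the wild-type range, and it did not pass (0.15, SE 0.08, adjusted p = 0.161). Flt4, the receptor for VEGF-C, was nearly level, at 47.3 to 55.3 CPM in wild type and 43.2 to 63.7 CPM in the mutant-labelled embryos (0.01, SE 0.09, adjusted p = 0.956).

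The log2 ratio of Flt1 to Kdr was -2.28 ± 0.14 (SD, n = 4) in wild type and -1.98 ± 0.25 (SD, n = 8) in the mutant-labelled embryos, with overlapping groups. The log2 ratio of Tek to Kdr was -1.36 ± 0.30 (SD, n = 4) against -0.60 ± 0.18 (SD, n = 8), and the groups did not overlap.

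VEGF ligands and co-receptors rose in 4 of 7 genes, and 3 did not pass. The share called was 57.1%, beside 51.5% over all genes, of which 26.6% were higher and 24.9% lower. Nrp1, a co-receptor for VEGF-A and semaphorins that other tissues also express, rose from 107 ± 18.3 CPM (SD, n = 4) to 175 ± 29.3 CPM (SD, n = 8), by 0.70 on the log2 scale (SE 0.13). Vegfa itself rose by 0.28 (SE 0.09), Vegfb by 0.30 (SE 0.08) and Figf, which encodes VEGF-D, by 0.68 (SE 0.19). The edgeR adjusted p lay between 0.000661 and 0.0199.

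**Figure D2:**
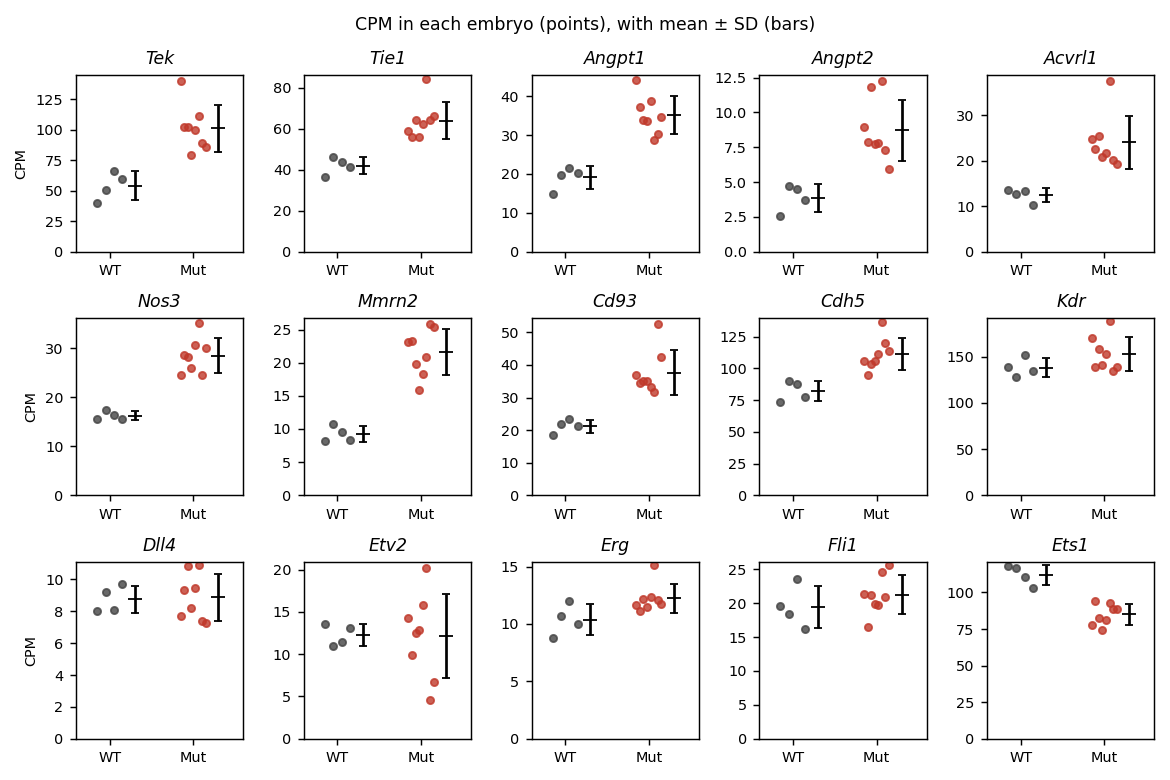
CPM (y axis, from 0) of 15 of the genes in each embryo, with 4 wild-type (WT, dark) and 8 mutant-labelled (Mut, red) points per panel and the mean ± SD beside them. Tek, Tie1, Angpt1, Angpt2, Acvrl1, Nos3, Mmrn2, Cd93 and Cdh5 separate upward without overlap, Ets1 separates downward, and Kdr, Dll4, Etv2, Erg and Fli1 overlap.

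Junction and adhesion genes, the structural markers of endothelium, rose in 5 of 7 cases, beside 26.6% of all genes called higher. Cdh5 encodes VE-cadherin, the defining adherens junction protein, and was at 73.6, 89.8, 87.6 and 77.7 CPM in wild type. In the mutant-labelled embryos it was at 94.6 to 137 CPM, with a median of 109 CPM. All 8 exceeded wild type, and Cdh5 rose by 0.44 (SE 0.08, adjusted p = 0.000567). Pecam1 (CD31) was at 26.8, 24.9, 27.8 and 23.3 CPM in wild type and at 30.5 to 55.5 CPM (median 35.7) in the mutant-labelled embryos. It rose by 0.58 (SE 0.15, adjusted p = 0.00408), with embryo 6 highest. Cldn5, the tight junction claudin of endothelium, was at 17, 19.6, 19.6 and 18.6 CPM in wild type and at 20.6 to 47.2 CPM (median 27.8) in the mutant-labelled embryos. Embryo 6 was again highest and all 8 lay above wild type, with a rise of 0.64 (SE 0.18, adjusted p = 0.0105). The call of Cldn5 was lost with the GC and length trends taken out (0.40, adjusted p = 0.0595).

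Icam2, an adhesion molecule for leukocytes, was at 7.88, 9.12, 8.98 and 7.38 CPM in wild type and at 9.9 to 14 CPM (median 11.5) in the mutant-labelled embryos, with no overlap and a rise of 0.52 (SE 0.11, adjusted p = 0.000932). Esam, another junction protein gene, rose by 0.34 (SE 0.13, adjusted p = 0.0371), which no longer passed when wild-type embryo 1, 2 or 4 or mutant-labelled embryo 7 or 8 was left out (adjusted p between 0.0523 and 0.101). With the GC and length trends taken out Esam stood at 0.20 (adjusted p = 0.159). The sialomucin genes did not pass. Emcn was at 10 to 13.4 CPM in wild type and 9.72 to 21.3 CPM in the mutant-labelled embryos (adjusted p = 0.217), and Cd34, which early blood progenitors also carry, was at 23.1 to 30.5 CPM and 19.4 to 42 CPM (adjusted p = 0.928).

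ALK1, encoded by Acvrl1, is the endothelial receptor for BMP9 and BMP10, and endoglin is its co-receptor. Acvrl1 was at 13.5, 12.7, 13.3 and 10.2 CPM in wild type and at 19.3 to 37.5 CPM (median 22.1) in the mutant-labelled embryos. The groups did not overlap, embryo 6 lay far above the 7 others of its group (19.3 to 25.3 CPM), and Acvrl1 rose by 0.95 (SE 0.16, adjusted p = 0.000229). Eng was at 35.9, 38.8, 44.6 and 35.8 CPM in wild type and at 38.9 to 64 CPM in the mutant-labelled embryos, an overlap, and its rise of 0.28 (SE 0.11, adjusted p = 0.047) was lost when any of 6 embryos was left out (wild-type 1, 2 or 4, or mutant-labelled 5, 6 or 8, adjusted p between 0.0547 and 0.132). With the GC and length trends taken out Eng stood at 0.11 (adjusted p = 0.479). The log2 ratio of Acvrl1 to Eng was -1.61 ± 0.17 (SD, n = 4) in wild type and -0.97 ± 0.39 (SD, n = 8) in the mutant-labelled embryos, with overlapping groups.

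Of 13 partners of this pathway 5 rose and 3 fell, beside 26.6% and 24.9% over all genes. The inhibitory Smad genes rose, Smad7 by 0.46 (SE 0.10, adjusted p = 0.000954) and Smad6 by 0.53 (SE 0.13, adjusted p = 0.00426). Smad5, a transducer of BMP signals, fell by 0.25 (SE 0.06, adjusted p = 0.00247) and the type II receptor gene Acvr2b by 0.40 (SE 0.10, adjusted p = 0.0053). Smad9, another such transducer, rose by 0.55 (SE 0.16, adjusted p = 0.00907) and Id1 by 0.24 (SE 0.09, adjusted p = 0.0431). Smad4 fell by 0.16 (SE 0.04, adjusted p = 0.00718). Smad9, Id1 and Smad4 were named after their values were seen. Gdf2, which encodes BMP9 and was singled out after its values were seen, was low, at 0.719 ± 0.481 CPM (SD, n = 4) and 2.31 ± 1.5 CPM (SD, n = 8), and rose by 1.68 (SE 0.56, adjusted p = 0.0237).

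Of the 7 transcription factor genes that specify endothelium, 5 had log2 fold changes above 0, with a median of 0.20 over the 7. By edgeR at the adjusted threshold none of the 7 rose and 1 fell, beside 26.6% and 24.9% over all genes. At an unadjusted p under 0.05 1 of the 7, Erg, was higher, and DESeq2 called 0 of the 7 higher. Ets1, an ETS factor of endothelium and of other mesoderm and neural crest, was at 118, 117, 111 and 103 CPM in wild type and at 74.1 to 93.9 CPM (median 85.8) in the mutant-labelled embryos. All 8 lay below every wild-type embryo, and Ets1 fell by 0.40 (SE 0.06, adjusted p = 0.000115). Erg was at 8.81, 10.7, 12 and 10.02 CPM in wild type and at 11.1 to 15.1 CPM (median 11.9) in the mutant-labelled embryos. All 8 were above the wild-type mean, 4 were above the wild-type range, and the test was not passed (0.23, SE 0.10, adjusted p = 0.0652). It was passed without wild-type embryo 3 (0.31, adjusted p = 0.0344). Fli1 was at 19.6, 18.3, 23.6 and 16.2 CPM in wild type and at 16.4 to 25.7 CPM (median 21) in the mutant-labelled embryos, which overlapped (0.13, SE 0.12, adjusted p = 0.372).

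The log2 ratio of Ets1 to Fli1 was 2.51 ± 0.21 (SD, n = 4) in wild type and 1.98 ± 0.22 (SD, n = 8) in the mutant-labelled embryos, with overlapping groups. Etv2, the early master regulator that is on for a short time only, was at 13.6, 11, 11.4 and 13.1 CPM in wild type and at 4.6 to 20.2 CPM (median 12.7) in the mutant-labelled embryos. The means were alike (-0.02, SE 0.30, adjusted p = 0.969) and the spread was not, with a coefficient of variation of 10.3% in wild type and 41.1% in the mutant-labelled embryos. The SoxF genes Sox7, Sox17 and Sox18 had log2 fold changes of 0.20 (SE 0.14), 0.33 (SE 0.18) and 0.22 (SE 0.14), with adjusted p between 0.15 and 0.237; a near-identical transcript, Gm37587, exists for Sox17.

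Signalling, guidance and matrix genes of endothelium rose in 8 of 9 cases, beside 26.6% of all genes called higher. Mmrn2, the matrix protein multimerin 2 and a ligand of Cd93, was at 8.17, 10.7, 9.5 and 8.32 CPM in wild type. Its range in the mutant-labelled embryos was 15.9 to 25.8 CPM, with a median of 22 CPM. No embryo of the groups overlapped, and the rise of 1.23 (SE 0.13, adjusted p = 2.59e-06) was the highest among the 40 genes. Cd93, a lectin-like surface receptor, was at 18.5, 21.7, 23.3 and 21.2 CPM in wild type and at 31.6 to 52.7 CPM (median 35.1) in the mutant-labelled embryos. It rose by 0.83 (SE 0.12, adjusted p = 7.13e-05), and embryo 7 was highest for both genes of this pair. Nos3, endothelial nitric oxide synthase, was at 15.6, 17.4, 16.4 and 15.6 CPM in wild type and at 24.6 to 35.2 CPM (median 28.5) in the mutant-labelled embryos. The groups were far apart against their spread, with a rise of 0.81 (SE 0.09, adjusted p = 5.7e-06); 25.2% of the exon length of Nos3 is shared with an antisense gene, and whether the counting used strand is not stated.

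Robo4, an endothelial guidance receptor, was low, at 1.22, 2.48, 1.67 and 1.6 CPM in wild type and 2.48 to 6.11 CPM (median 3.68) in the mutant-labelled embryos. It rose by 1.14 (SE 0.26, adjusted p = 0.00186), with 7 of 8 mutant-labelled embryos above the wild-type range. Egfl7, a secreted factor of growing vessels, rose by 0.37 (SE 0.10, adjusted p = 0.00563), Ecscr, a surface protein of endothelial cells, by 0.43 (SE 0.12, adjusted p = 0.00556), and Rasip1, needed to open vessel lumens, by 0.49 (SE 0.13, adjusted p = 0.00621), each without overlap. Rasip1 shares 15.6% and 6.93% of its exon length with antisense genes and a near-identical stretch with Izumo1, and Egfl7 shares 14.1% with another gene on its own strand, so their reads are uncertain. Plvap rose by 0.26 (SE 0.09, adjusted p = 0.0249), but not once wild-type embryo 1 was left out (adjusted p = 0.11) or the GC and length trends were taken out (adjusted p = 0.556). With those trends removed Egfl7 and Rasip1 did not pass either (adjusted p = 0.0534 and 0.0742). Procr, the protein C receptor gene, did not pass (adjusted p = 0.126). Mutant-labelled embryo 6 had 9.35 CPM, the 7 others of its group 1.75 to 2.75 CPM and wild type 1.55 to 2.03 CPM.

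The apelin system rose in ligand and receptor. Apln was at 18.5, 21.5, 18.4 and 24 CPM in wild type and at 26.4 to 39.7 CPM (median 27.5) in the mutant-labelled embryos. It rose by 0.54 (SE 0.12, adjusted p = 0.00136) with no overlap. Aplnr, the receptor, which early mesoderm and veins also express, was at 49.9, 65.7, 67.1 and 67.2 CPM in wild type and at 73.2 to 116 CPM (median 79.4) in the mutant-labelled embryos. All 8 lay above wild type, wild-type embryo 1 lay well below its group, and the rise was 0.43 (SE 0.12, adjusted p = 0.00813).

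The adrenomedullin receptor genes did not pass, although the ligand gene rose. Ramp2 was at 27.8 to 33.2 CPM in wild type and 26.8 to 50.6 CPM in the mutant-labelled embryos (0.07, SE 0.14, adjusted p = 0.705), and part of its transcript set is near-identical to its neighbour Vps25. Calcrl was at 19.6 to 23.4 CPM and 18.1 to 30.2 CPM (0.21, SE 0.12, adjusted p = 0.168), and it passed without mutant-labelled embryo 2 (0.27, adjusted p = 0.0428), with the red cell score in the fit (0.40, adjusted p = 0.00395) and with the GC and length trends taken out (0.35, adjusted p = 0.0154). Adm, the ligand gene and a target of the hypoxia response, rose from 2.28 ± 0.853 CPM (SD, n = 4) to 8.19 ± 3.32 CPM (SD, n = 8), by 1.84 on the log2 scale (SE 0.36, adjusted p = 0.000943). Of 5 partners of these receptors, Adm included, 3 rose, beside 26.6% of all genes called higher. Ramp1 rose by 1.76 (SE 0.23) and Cxcr7, a decoy receptor for adrenomedullin and CXCL12, by 0.67 (SE 0.11), each in 8 of 8 embryos. Ramp3, another receptor component, named after its values were seen (-0.05, SE 0.19, adjusted p = 0.852), and the other ligand gene Adm2 (0.46, SE 0.35, adjusted p = 0.292) did not pass.

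The Notch ligand Dll4, a marker and driver of arterial fate, was level. It was at 8.05, 9.22, 8.06 and 9.72 CPM in wild type and at 7.26 to 10.9 CPM (median 8.76) in the mutant-labelled embryos (0.02, SE 0.13, adjusted p = 0.912). Of 13 other arterial genes tested 5 rose and 4 fell, beside 26.6% and 24.9% over all genes. Hey2, a Notch target, rose by 0.43 (SE 0.09, adjusted p = 0.000655). Fbxw7, which encodes the ubiquitin ligase subunit that clears active Notch, fell by 0.53 (SE 0.07, adjusted p = 2.52e-05). Added after their values were seen, Hey1, Efnb2, Gja4 and Gja5 did not pass (0.07, 0.14, -0.03 and 0.05, adjusted p = 0.379, 0.0758, 0.931 and 0.908). Likewise added, Jag1 and Cxcr4 fell by 0.21 and 0.27 (adjusted p = 0.0489 and 0.0239), and Unc5b rose by 0.25 (adjusted p = 0.0187). The Notch receptor genes, singled out after their values were seen, moved apart: Notch4, largely endothelial, rose by 0.43 (SE 0.10, adjusted p = 0.00193), and Notch1, which many tissues express, fell by 0.34 (SE 0.11, adjusted p = 0.0153), with wild-type embryo 1 at 80 CPM and the other wild-type embryos at 109.5 to 116 CPM. Of 7 venous and lymphatic genes 2 rose, a share of 28.6% beside 26.6% over all genes: Pdpn, podoplanin, which epithelia and mesothelium also express, by 1.29 (SE 0.11, adjusted p = 2.91e-07) and Ccbe1, which helps to activate VEGF-C, by 0.92 (SE 0.16, adjusted p = 0.000201). Nr2f2, the regulator of venous fate, did not pass (adjusted p = 0.197).

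The scavenger receptors Stab1 and Stab2 rose. Stab1 was at 34.2, 43.8, 47.2 and 41.8 CPM in wild type and at 50.7 to 68.9 CPM (median 65.5) in the mutant-labelled embryos. There was no overlap, 7 of the 8 mutant-labelled embryos lay between 61.2 and 68.9 CPM, and Stab1 rose by 0.61 (SE 0.09, adjusted p = 4.13e-05). Stab2 was at 1.16, 3.14, 4.15 and 3.24 CPM in wild type and at 2.67 to 12.2 CPM (median 5.93) in the mutant-labelled embryos. Its groups overlapped, and the rise of 1.19 (SE 0.45, adjusted p = 0.0416) was lost when any of 7 embryos was left out (wild-type 1, 2 or 4, mutant-labelled 1, 3, 4 or 7, adjusted p between 0.0602 and 0.116). Lyve1, a hyaluronan receptor of lymphatic, yolk sac and early venous endothelium, did not pass (0.58, SE 0.38, adjusted p = 0.225), with wild-type values of 3.59 to 10.8 CPM and mutant-labelled values of 4.33 to 18.5 CPM.

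**Figure D3:**
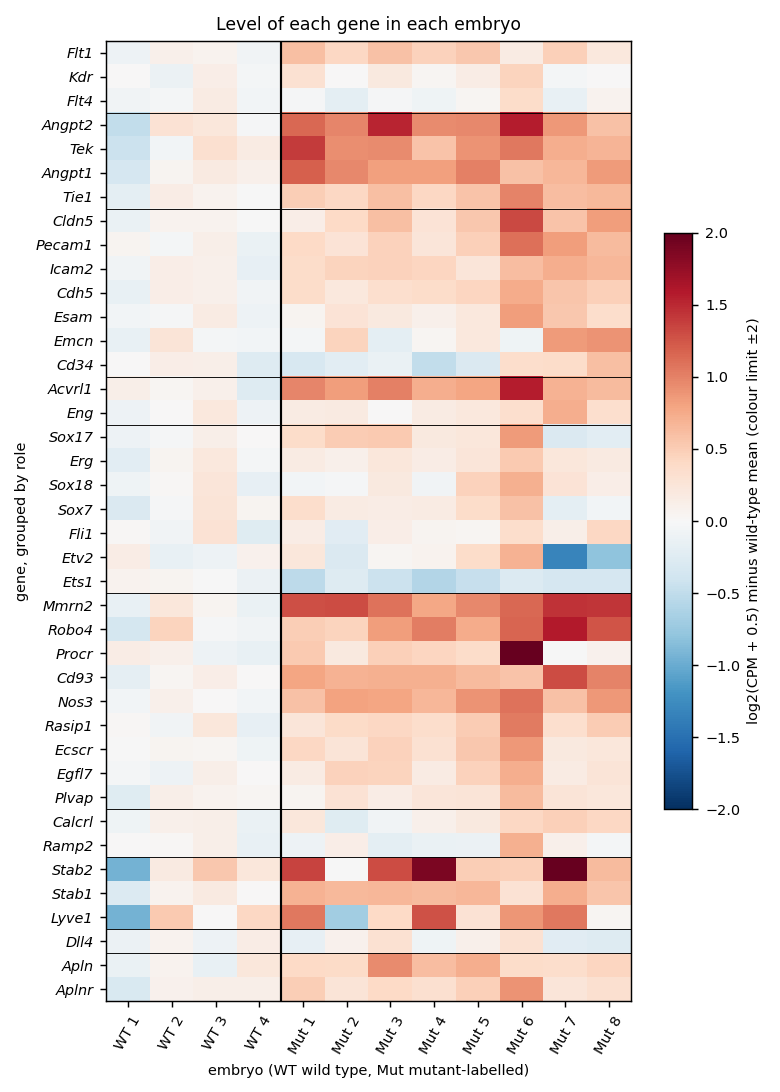
Level of each gene (rows, grouped by role) in each embryo (columns; WT wild type, Mut mutant-labelled), as log2(CPM + 0.5) minus the wild-type mean, with colours capped at 2 on either side. The mutant-labelled columns are mostly red, Ets1 is blue in all 8, and embryo 6 holds the highest mutant-labelled value of 23 genes.

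The embryos differed in level and in pattern. The sum over the 40 genes was 1112 to 1299 CPM in wild type and 1408 to 1871 CPM in the mutant-labelled embryos, so the groups did not overlap. Mutant-labelled embryo 6 had the sum of 1871 CPM and the next embryo 1543 CPM. Embryo 6 was the highest mutant-labelled embryo for 23 genes, among them Kdr, Tie1, Cdh5, Pecam1, Etv2, Erg and Sox17, and the lowest for 4, Flt1, Angpt1, Stab1 and Cd93. Embryos 7 and 8 differed from the rest in another direction. Etv2 was at 4.6 and 6.77 CPM in embryos 7 and 8 and at 9.95 to 20.2 CPM in the other 6, and Sox17 at 8.67 and 9.22 CPM against 12.4 to 19.8 CPM. Emcn was at 20.6 and 21.3 CPM in embryos 7 and 8 against 9.72 to 15.4 CPM in the other 6. The same embryos had high red cell gene sums, 1152 and 1738 CPM, as did embryo 1 with 1459 CPM, while the other 5 lay at 39.7 to 439.5 CPM. Whether the red cell content had a part in these gene levels was not tested across embryos; once the red cell score entered the fit 23 endothelial genes were higher and 1 lower.

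Endothelial genes outside the 40 moved in the same direction on balance. The median log2 fold change of 37 such genes tested was 0.35, against 0.01 over all genes. Of the 37 genes 18 rose and 3 fell, beside 26.6% and 24.9% over all genes. Among these were Afap1l1 (0.58, SE 0.06), Tspan18 (0.50, SE 0.07), the adhesion receptor gene Eltd1 (1.05, SE 0.15) and the transcription factor gene Mef2c, also a heart gene (0.45, SE 0.07), with edgeR adjusted p between 7.28e-07 and 5.03e-05. Tal1 and Lmo2, also of this list and shared with blood progenitors, fell. Tal1 fell from 31.2 ± 2.49 CPM (SD, n = 4) to 19.6 ± 4.64 CPM (SD, n = 8), by 0.67 (SE 0.16, adjusted p = 0.00309), and Lmo2 by 0.32 (SE 0.09, adjusted p = 0.00987). Tal1 and Lmo2 were singled out after their values were seen.

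To ask which of the 40 genes moved beyond endothelial genes at large, libraries were also scaled to the geometric mean of those 37 genes, a choice made after the data were seen. This scaling moves the median of all genes by -0.27 on the log2 scale, and calls over all genes turn from 3840 higher and 3583 lower to 1560 higher and 6573 lower. Of the 40 genes 12 stayed past the threshold as higher: Tek, Tie1, Angpt1, Angpt2, Acvrl1, Mmrn2, Cd93, Nos3, Robo4, Stab1, Pecam1 and Cldn5. Mmrn2 was at 0.97 (adjusted p = 1.56e-06), Angpt2 at 0.92 (adjusted p = 0.000285), Acvrl1 at 0.68 (adjusted p = 0.00074) and Tek at 0.65 (adjusted p = 0.00211). Cdh5 did not pass on this scale (0.17, adjusted p = 0.0744), nor did Flt1 (0.19, adjusted p = 0.157). Ets1 stood at -0.67 (adjusted p = 2.48e-06), and Flt4, level under TMM scaling, at -0.26 (adjusted p = 0.0198). The 37 genes are not all confined to endothelium, so this scale is not a measure of endothelial cell number.

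**Figure D4:**
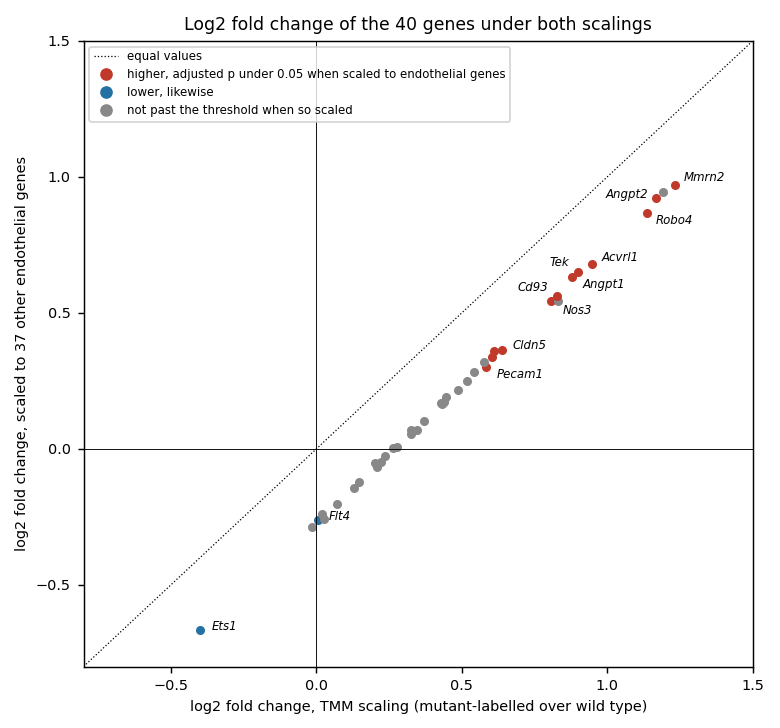
Log2 fold change of the 40 genes under TMM scaling (x axis) and with libraries scaled to 37 other endothelial genes (y axis); the dotted line marks equal values. All points lie below the line, 12 genes stay higher past the threshold (red), and Ets1 and Flt4 are lower (blue).

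Markers of some other cell types differed too, while of 11 neural tube genes 10 did not pass and 1 fell. The counts below stand beside 26.6% of genes called higher and 24.9% called lower over all genes tested. Of 16 heart muscle genes 12 rose, with a summed level of 1721 to 2178 CPM in wild type and 2616 to 4585 CPM in the mutant-labelled embryos. Of 10 mural cell genes tested 6 rose and 1 fell, with sums of 682 to 775 and 965 to 1280 CPM. Among those that rose were Acta2 (0.81, SE 0.09) and Pdgfrb (0.50, SE 0.07), which other mesoderm expresses too. Acta2 held a large part of the sums, at 321 ± 34.6 CPM (SD, n = 4) and 564 ± 68.4 CPM (SD, n = 8). Myh11 fell by 0.85 (SE 0.29, adjusted p = 0.0243). Rgs5, Notch3 and Abcc9 did not pass (0.14, -0.09 and 0.91, adjusted p = 0.801, 0.431 and 0.104). Myh11, Rgs5, Notch3 and Abcc9 were named after their values were seen. Of 7 endocardial genes 3 rose, among them Nfatc1 by 0.42 (SE 0.10), and 2 fell, among them Hapln1 by 0.29 (SE 0.07). The median log2 fold change of the endocardial list was -0.04. Of 19 hypoxia response genes, which include Vegfa and Adm, 15 rose. Their sums overlapped, at 6919 to 8045 CPM in wild type and 6477 to 9574 CPM in the mutant-labelled embryos, with embryo 8 lowest. The edgeR adjusted p of Acta2, Pdgfrb, Nfatc1 and Hapln1 lay between 5.92e-06 and 0.00379. The part of these tissues in the rise of the 40 genes was not tested.

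Some blood lineages share Pecam1, Cd34, Stab1 and Lyve1 with endothelium. Of 10 blood progenitor genes tested 3 rose and 2 fell, beside 26.6% and 24.9% over all genes. Those that fell were Kit, by 0.35 (SE 0.11, adjusted p = 0.0135), and Ikzf1, by 0.98 (SE 0.34, adjusted p = 0.0261), both named after their values were seen. Macrophage genes summed to 8.17 to 11.7 CPM in wild type and 10.4 to 20.6 CPM in the mutant-labelled embryos, with C1qa at 0 counts in all 12 libraries and Cx3cr1 at 2 counts at most; 4 of 14 were tested and 1, Mrc1, which endothelium also expresses, rose (1.05, SE 0.36, adjusted p = 0.0262). Of 9 megakaryocyte and platelet genes 3 passed the count filter and 2 rose. The list summed to 7.53 to 8.17 CPM in wild type and 9.6 to 25.2 CPM in the mutant-labelled embryos, without overlap. Itga2b, also counted among the blood progenitor genes, held most of the wild-type sum, at 6.6 to 7.02 CPM. Itga2b rose from 6.79 ± 0.176 CPM (SD, n = 4) to 11.5 ± 3.43 CPM (SD, n = 8), by 0.76 (SE 0.20, adjusted p = 0.00502), and Gp1bb by 1.66 (SE 0.40, adjusted p = 0.00289). Gp1bb was near the floor, with 25 counts over the 4 wild-type libraries and as few as 1 in a library. Pf4, named after its values were seen, did not pass the count filter and had 1 count over the 4 wild-type libraries and 160 over the 8 mutant-labelled libraries, 81 of them in embryo 7 and 0 in embryos 4 and 6. No primitive red cell gene of 12 tested was called by edgeR at the adjusted threshold (1, Klf1, at an unadjusted p under 0.05, and 1 by DESeq2, but 7 lower by limma-voom and 11 lower with its sample quality weights), with a list median of -1.04. None of 14 yolk sac endoderm genes was called by edgeR, 0 at an unadjusted p under 0.05 and 0 by DESeq2, and 2 were lower by limma-voom. The sums of both lists ranged over 39.7 to 1738 and 797 to 3702 CPM among the mutant-labelled embryos.

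**Figure D5:**
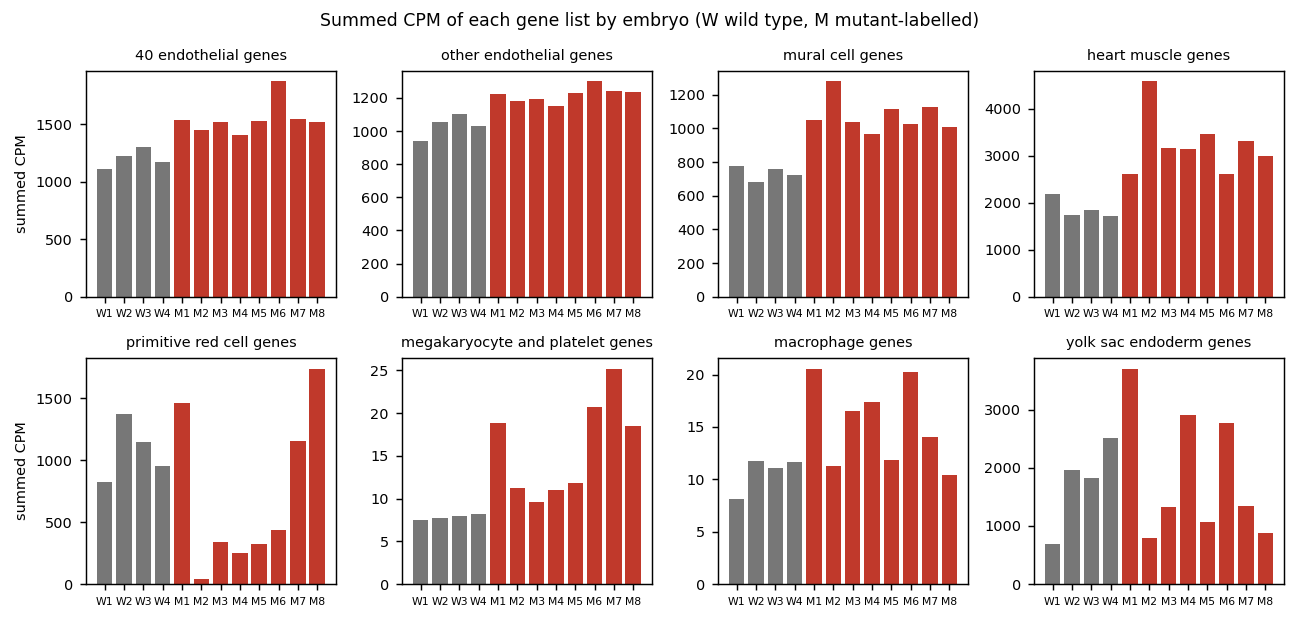
Summed CPM (y axis, from 0) of 8 gene lists in each embryo, with wild-type embryos W1 to W4 in grey and mutant-labelled embryos M1 to M8 in red. The 40 endothelial genes, the other endothelial genes, mural and heart muscle genes are higher in all 8 mutant-labelled embryos, while red cell and yolk sac sums spread widely and overlap.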

How the data were processed

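Poly-A RNA of 12 single embryos was sequenced as paired reads of 50 bases, per the labels' protocols. The deposited table holds raw counts per gene symbol, 1 column per embryo. The submitters' processing notes name FastQC, STAR, featureCounts, DESeq2 and the build mm9; the sources used here do not give versions, annotation or strand setting. Counts were tested with edgeR 4.0.16 (TMM scaling, filterByExpr, robust quasi-likelihood fit on genotype), with DESeq2 1.42.0 and limma 3.58.1 as alternatives. SE is the absolute log2 fold change divided by the square root of F. Ratios and embryo deviations used log2(CPM + 0.5). Exon lengths and overlaps came from GENCODE M21, near-identical copies (200 bases, 95%) from BLAST 2.17.0; 246 symbols matched no annotation. In simulated counts for this design over 14412 genes, 41 of 62 genes changed 1.5-fold, 61 of 70 changed 2-fold and 64 of 68 changed 4-fold were recovered. Of 169 simulated calls 3 were of unchanged genes. Far fewer genes were changed there than were called in the data, so the adjustment was stricter and these shares do not carry over directly. Members, lists and the rule for named genes (every member, per-embryo values for called members with a log2 fold change of at least 0.5 and a preset few, and up to 4 genes with the lowest p per list) were chosen with earlier results of these data known. Nothing says that embryos came from separate litters, so p-values measure the spread between these embryos. Replicates differed by more than counting noise (chi-square per degree of freedom 3.89 to 27.1).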

Additional observations from a re-analysis of the deposited data

Results flagged for a closer look

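In 250 groups of values (a gene, list sum or ratio in the embryos of 1 genotype) the gap of the highest or lowest embryo to its neighbour was divided by the range of the group, and 32 groups (12.8%) passed Dixon's 95% limit; chance flags about 1 in 20. Mutant-labelled embryo 6 was the highest of its group for Flt4 (gap 0.588), Tie1 (0.631), Acvrl1 (0.67), Erg (0.684), Ecscr (0.535), Ramp2 (0.714), Plvap (0.638), Procr (0.868), Rasip1 (0.72) and Aplnr (0.677). It was also highest in the sums over the 40 genes (0.708), over their transcription factors (0.639) and over their secreted, guidance and signalling genes (0.696). The same embryo was lowest for Stab1 (0.575), Angptl2 (0.676) and the log2 ratio of Flt1 to Kdr (0.607).

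Mutant-labelled embryo 7 was high for Eng (gap 0.599). Mutant-labelled embryo 1 was high for Nrp1 (0.59), Svep1 (0.528), Hapln1 (0.655) and the endocardial sum (0.571). Mutant-labelled embryo 2 was high for Tnni1 (0.634), Myl4 (0.585), the heart muscle sum (0.571), the sum of the BMP9 and ALK1 partners (0.631) and the log2 ratio of Ets1 to Fli1 (0.583). In wild type, embryo 1 was low for Aplnr (0.91), Notch1 (0.831) and the blood progenitor sum (0.861) and high for the neural tube sum (0.85), embryo 3 was high for Flt4 (0.915) and embryo 2 for Angptl4 (0.863).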

How the results depend on the processing

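All 25 called genes kept their direction in each of 25 other settings, and 21 kept their call whichever embryo was left out. Leave-one-out fits called 20 to 25 of the 40 genes higher and 1 lower in every fit. A test against a fold of 1.2 called 15 higher, and over all genes 2079 higher and 1144 lower in place of 3840 and 3583. Scaling to other endothelial genes, chosen after the data were seen, gave 12 higher and 2 lower, with 1560 and 6573 over all genes, and Flt4 turned to -0.26. With trends on GC content and length removed 19 genes were higher, and over all genes 3251 higher and 4467 lower; under that setting VEGF ligands fell from 4 to 2 higher, arterial genes from 5 to 3 and mural genes from 6 to 3. The cause of these shifts was not tested. Depth limits Robo4, Stab2 and Procr, which had as few as 21, 20 and 28 counts in a library. No paired analysis was possible because the labels give no replicate numbers.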
